A study of Mus musculus with 10 samples.

Results

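Genes of the inflammasome and interleukin-1 (IL-1) family were followed in mouse brain after Aldara treatment of the skin, namely the cytokine genes Il1a, Il1b, Il18 and Il1rn, the sensor genes Nlrp3 and Aim2, the adapter gene Pycard, the protease genes Casp1 and Casp4, and the pore gene Gsdmd. They were chosen by symbol in the array's platform annotation, where each of the 10 genes had 1 probeset of its own and none was shared with another gene, out of 19938 genes with a probeset of 1 symbol. RNA came from the perfused whole brains of 10 female mice of the c57BL/6 strain, aged 6 to 8 weeks, each on its own Affymetrix GeneChip array. One group of 5 mice received 80 mg of Aldara cream with 5% imiquimod, a drug that activates the RNA-sensing Toll-like receptor TLR7. The other group of 5 mice received 80 mg of an aqueous control cream. Each cream went onto shaved dorsal skin 5 times at intervals of 24 h, and 24 h later the brains were collected. The control cream was not the vehicle of Aldara cream, so imiquimod and the other ingredients of Aldara cannot be told apart in this comparison.

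Inflammasomes are cytosolic complexes that form when a sensor such as NLRP3, or AIM2, which binds double-stranded DNA, recruits the adapter ASC, the product of Pycard. ASC gathers caspase-1, which cuts the precursors of IL-1 beta and IL-18 into active cytokines and cuts gasdermin D into a fragment that opens pores in the cell membrane. The mouse caspase made by Casp4, long called caspase-11, senses bacterial lipopolysaccharide in the cytosol and cuts gasdermin D as well. IL-1 alpha and IL-1 beta share 1 receptor, which the antagonist made by Il1rn blocks. In brain, these genes are known mainly from microglia and other myeloid cells, and IL-1 beta is a mediator of sickness behaviour. Much of the pathway's control lies in protein cutting, which an RNA measurement does not show.

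After Aldara treatment, brain RNA of 8 of the 10 genes was higher and that of none was lower. At the same threshold, an adjusted p under 0.05 from limma with Benjamini-Hochberg adjustment over all 23410 probesets tested, 12.4% of all probesets were higher and 21.0% were lower. For each of the 8 genes, every Aldara-treated mouse stood above every control mouse, which was so for 10.5% of all probesets. The increases were largest for the caspase genes Casp1 (2.23-fold) and Casp4 (1.85-fold), smaller for Pycard (1.59-fold), Aim2 (1.57-fold), Il1b (1.38-fold), Il1rn (1.28-fold) and Gsdmd (1.27-fold), and only 1.06-fold for Nlrp3. Il1a and Il18 did not pass the test. The median log2 difference, Aldara minus control, was 0.41 over the 10 genes and -0.041 over all probesets tested. All values are log2 expression values normalised by the authors with RMA, a method that gives every array a like spread of values, and a log2 difference of 1 is a doubling. Array medians over the probesets tested still ran from 8.16 to 8.19 with Aldara and from 8.10 to 8.14 with control cream. Values of different probesets do not share a scale, so levels are compared between mice and not between genes.

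The mean values of the 10 genes, which carry no common scale with other probesets, lay between the 12.9th and 48.5th percentile of the probesets tested. The deposited values do not say which probesets exceeded background, and a difference measured near background understates the change in RNA. Across probesets, r was 0.995 to 0.999 between Aldara arrays, 0.998 to 0.999 between control arrays, and 0.98 to 0.988 between an Aldara and a control array. Markers of leukocytes moved with the groups. Ptprc, the CD45 gene of all leukocytes, had a log2 difference of 3.05 (standard error 0.094). Of 10 measured markers of monocytes and infiltrating macrophages, 8 were higher and 1 was lower, and their mean log2 value per mouse ran from 8.67 to 9.01 with Aldara and from 7.10 to 7.21 with control cream. One of the 10 was read from a probeset shared by Ly6c2 and Ly6c1. Of 7 measured microglia markers, 4 were higher and 2 were lower, with a mean between 8.50 and 8.69 under Aldara and between 8.29 and 8.45 under control cream. None of 9 neutrophil markers passed the test (1 was lower when every array was centred on its median, 2 were higher after quantile normalisation, and 3 when the median difference over probesets was set to 0), and their mean lay between 5.94 and 6.00 under Aldara and between 5.89 and 5.97 under control cream. All 8 neuron markers were slightly lower (4 of the 8 with the median difference set to 0), with a mean between 11.92 and 11.95 under Aldara and between 12.05 and 12.09 under control cream. Other lists moved as well, namely endothelial cells (5 of 6 higher) and T and natural killer cells (6 of 9 higher, 1 lower). Of astrocyte markers, 3 of 7 were higher and 4 lower, and of oligodendrocyte markers 1 of 5 was higher and 1 lower. Over all probesets, 12.4% were higher and 21.0% lower. More cells of a type and more RNA per cell cannot be told apart in whole tissue, and the part of these markers in the changes of the 10 genes was not tested.

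**Figure D1:**
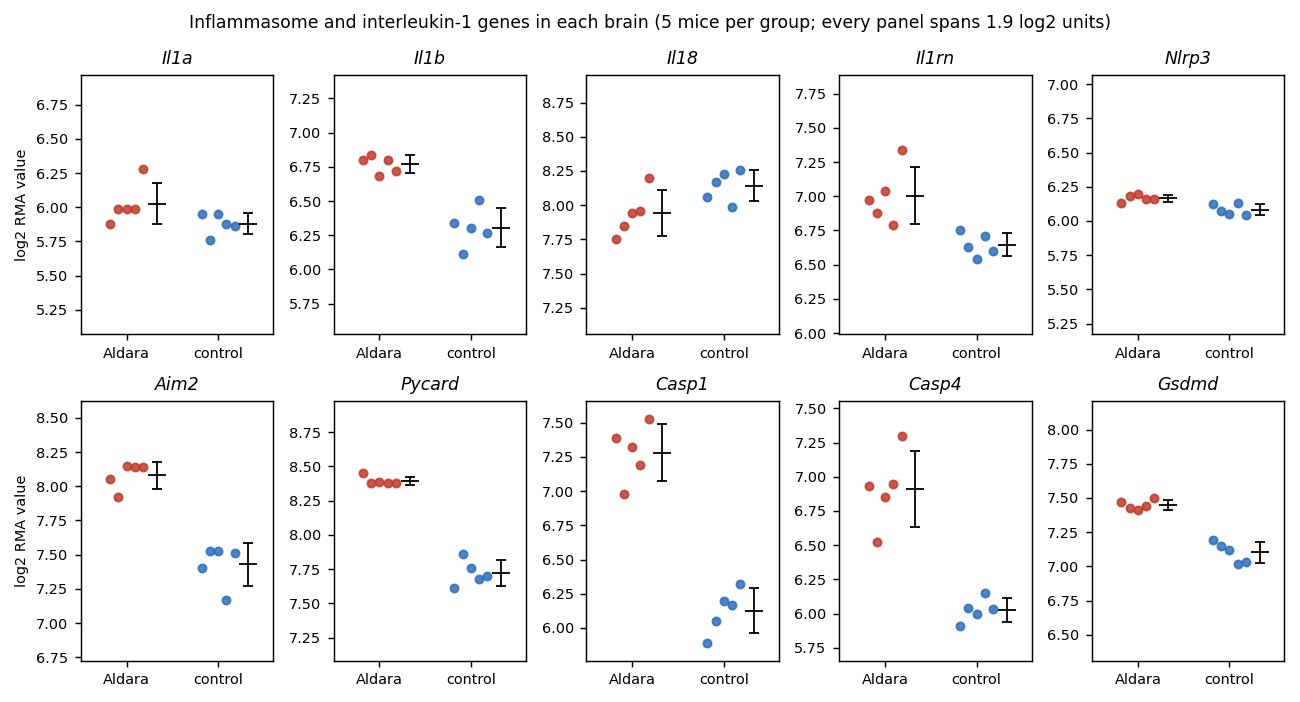
Log2 RMA values of each of the 10 genes in 5 Aldara brains (red points, left) and 5 control brains (blue points, right), with the mean and SD of each group in black. Each panel spans the same height. The groups are apart for 8 genes, by the widest margin for Casp1, and overlap for Il1a and Il18.

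The 4 genes with the largest increases were Casp1, Casp4, Pycard and Aim2, and their promoters are shown here as genes that were higher together. The sequences run from 250 bases before to 50 bases after the annotated start and come from RefSeq with the build GRCm38.p6, where 9 of the 10 genes had at least 1 such window. Capitals mark matches to any of 5 motifs searched on both strands, which were the ISRE motif of interferon-activated factors (GAAA, any 2 bases, GAAA), the GAS motif of STAT factors (TTCNNNGAA), a core of the myeloid factor PU.1 (GAGGAAGT), the AP-1 motif (TGANTCA) and the NF-kB consensus.
Casp1 (chr9:5298267-5298566, plus strand): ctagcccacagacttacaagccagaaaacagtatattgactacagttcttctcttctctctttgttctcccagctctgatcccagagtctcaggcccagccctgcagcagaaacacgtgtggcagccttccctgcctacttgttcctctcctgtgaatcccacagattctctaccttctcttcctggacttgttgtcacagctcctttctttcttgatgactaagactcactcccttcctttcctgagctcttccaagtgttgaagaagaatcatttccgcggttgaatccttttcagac
Casp4 (chr9:5308599-5308898, plus strand): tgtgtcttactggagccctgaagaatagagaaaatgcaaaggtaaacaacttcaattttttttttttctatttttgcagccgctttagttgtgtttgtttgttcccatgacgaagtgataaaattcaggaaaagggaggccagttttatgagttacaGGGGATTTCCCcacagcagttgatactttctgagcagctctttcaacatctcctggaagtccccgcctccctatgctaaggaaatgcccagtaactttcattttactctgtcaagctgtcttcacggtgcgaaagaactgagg
Pycard (chr7:127993818-127994117, minus strand): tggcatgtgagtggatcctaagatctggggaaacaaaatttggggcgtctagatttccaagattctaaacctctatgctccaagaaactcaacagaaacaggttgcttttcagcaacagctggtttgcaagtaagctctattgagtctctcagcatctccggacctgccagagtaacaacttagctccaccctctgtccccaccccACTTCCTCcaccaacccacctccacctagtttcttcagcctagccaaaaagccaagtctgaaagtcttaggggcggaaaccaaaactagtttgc
Aim2 (chr1:173420354-173420653, plus strand): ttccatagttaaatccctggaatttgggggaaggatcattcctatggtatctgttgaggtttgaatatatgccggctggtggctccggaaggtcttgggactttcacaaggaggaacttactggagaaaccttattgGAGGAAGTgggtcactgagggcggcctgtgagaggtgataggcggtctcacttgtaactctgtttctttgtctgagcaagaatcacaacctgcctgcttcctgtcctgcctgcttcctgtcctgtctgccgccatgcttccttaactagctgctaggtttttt
The Casp1 window held none of the 5 motifs. The Casp4 window held a pair of overlapping NF-kB matches, which begin 93 and 92 bases before the start, and 4.51% of all 32851 windows held at least 1. The same bases lie in a second Casp4 window with a start slightly further on. The windows of Pycard and Aim2 each held 1 match to the PU.1 core, 44 and 113 bases before the start, against 3.20% of all windows. Among the other genes, AP-1 matches lay in the window of Il1a and in 1 of 3 windows of Il1rn (7.81% of all windows), and an NF-kB match in 1 of 2 windows of Nlrp3. None of the 13 windows of the 9 genes held the ISRE motif (3.44% of all windows) or the GAS motif (8.30%). Gsdmd had no window and was not searched. These matches describe the letters of the windows only.

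Casp1, the gene of the protease that matures IL-1 beta and IL-18, showed the largest increase of the 10. Its log2 value was 7.39, 6.98, 7.32, 7.19 and 7.53 in the Aldara-treated mice, against 5.89, 6.05, 6.20, 6.17 and 6.32 in the control mice. The lowest Aldara-treated mouse stood 0.66 above the highest control mouse. The log2 difference was 1.16 (standard error 0.10, 95% interval 0.94 to 1.37, adjusted p = 3.6e-06 from limma), which ranked 297th from the top among the 23410 probesets. Casp4, which lies beside Casp1 on chromosome 9 and encodes a related protease, had 6.93, 6.52, 6.85, 6.95 and 7.30 in Aldara-treated mice and 5.91, 6.04, 6.00, 6.15 and 6.03 in control mice. Aldara replicate 5 was the highest mouse and Aldara replicate 2 the lowest of the treated group for both caspase genes. The log2 difference of Casp4 was 0.89 (standard error 0.11, 95% interval 0.65 to 1.13, adjusted p = 7.9e-05 from limma). It was smaller than that of Casp1 by 0.27 (95% interval of the difference -0.46 to -0.079, exact permutation test on the 2 genes' difference in each mouse, adjusted p = 0.038 over 6 pairs of genes tested). The call was lost when any 1 of 7 of the 10 mice was left out. Without single mice the difference ran from -0.32 to -0.24, and the smallest p that the exact test allows rose from 0.0079 to 0.016. The paralogues are similar in sequence, and hybridisation of one gene's RNA to the other's probes was not tested.

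Pycard, which encodes the ASC adapter, had the smallest relative error of the 10 genes. Its log2 value was 8.45, 8.38, 8.39, 8.38 and 8.38 in Aldara-treated mice and 7.61, 7.86, 7.76, 7.68 and 7.70 in control mice. The Aldara-treated mice lay close together and at least 0.52 above the control mice. The log2 difference was 0.67 (standard error 0.043, 95% interval 0.58 to 0.77, adjusted p = 2.3e-07 from limma). The interval lies below that of Casp1 and overlaps those of Casp4 and Aim2.

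The sensor genes Aim2 and Nlrp3 differed in the size of their measured change. Aim2, which encodes the sensor of cytosolic DNA, had log2 values of 8.05, 7.92, 8.15, 8.14 and 8.14 in Aldara-treated mice, against 7.40, 7.53, 7.53, 7.17 and 7.51 in control mice. Its log2 difference was 0.65 (standard error 0.071, 95% interval 0.50 to 0.80, adjusted p = 2.7e-05 from limma). Nlrp3, whose product responds to potassium loss and many other danger signals, had 6.13, 6.18, 6.20, 6.16 and 6.16 in Aldara-treated mice and 6.12, 6.07, 6.05, 6.13 and 6.04 in control mice. The groups of Nlrp3 stood apart by only 0.0065. Its log2 difference of 0.089 (standard error 0.028) passed the threshold narrowly (adjusted p = 0.028 from limma). In limma it missed the threshold when every array was centred on its median (0.041, adjusted p = 0.26). It also missed it with another variance model and with a block for the replicate number (adjusted p = 0.078 for each). The same held without any 1 of 6 of the 10 mice (adjusted p = 0.050 to 0.065). The measured change of Aim2 exceeded that of Nlrp3 by 0.56 on the log2 scale (95% interval 0.34 to 0.78, exact permutation test, adjusted p = 0.016 over 6 pairs), with no overlap between the groups in the difference of the 2 genes. The mean of Nlrp3 lay at the 15.8th percentile of the probesets tested and that of Aim2 at the 43.6th. Whether nearness to background lowered the measured change of Nlrp3 was not tested.

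**Figure D2:**
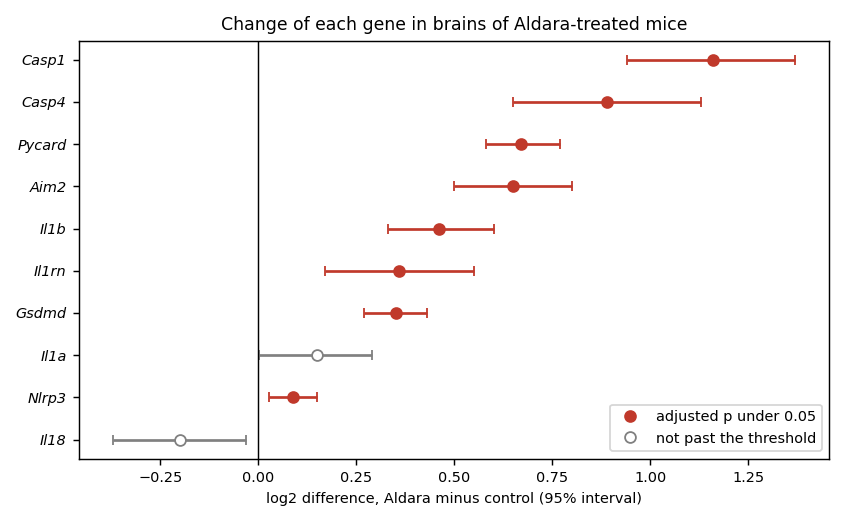
Log2 difference between Aldara and control brains for each of the 10 genes (points), with its 95% interval from limma (bars), in order of size, for 5 mice per group. Filled red points passed the adjusted threshold. Casp1 stands at 1.16, Nlrp3 at 0.089 with an interval close to 0, and Il18 is the only gene below 0, at -0.20.

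Gsdmd, the gene of the pore-forming gasdermin D, was higher by a small and even amount. Its log2 value was 7.47, 7.43, 7.41, 7.44 and 7.50 in Aldara-treated mice and 7.19, 7.15, 7.12, 7.02 and 7.03 in control mice, and the groups stood 0.22 apart. The log2 difference was 0.35 (standard error 0.037, 95% interval 0.27 to 0.43, adjusted p = 2.3e-05 from limma), with an interval below those of Pycard and Aim2.

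Among the cytokines, Il1b and the antagonist gene Il1rn were higher, whereas Il1a and Il18 did not pass the test. Il1b had log2 values of 6.80, 6.84, 6.68, 6.80 and 6.72 in Aldara-treated mice and 6.34, 6.11, 6.30, 6.51 and 6.27 in control mice. Its log2 difference was 0.46 (standard error 0.062, 95% interval 0.33 to 0.60, adjusted p = 1.4e-04 from limma). Unlike for the caspase genes, Aldara replicate 5 was not the highest mouse for Il1b. The change of Casp1 exceeded that of Il1b by 0.69 on the log2 scale (95% interval 0.35 to 1.03, exact permutation test, adjusted p = 0.016 over 6 pairs).
Il1rn had log2 values of 6.97, 6.88, 7.04, 6.79 and 7.34 in Aldara-treated mice and 6.75, 6.63, 6.54, 6.71 and 6.60 in control mice. The groups stood apart by only 0.043, and the treated mice spread widely, with Aldara replicate 5 highest. The log2 difference was 0.36 (standard error 0.087, 95% interval 0.17 to 0.55, adjusted p = 0.0073 from limma). It was not shown to differ from that of Il1b, with a difference between the 2 changes of -0.10 (95% interval -0.40 to 0.19, exact permutation test, adjusted p = 0.45 over 6 pairs).

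Il1a, whose product acts as an alarm signal when cells die, had log2 values of 5.88, 5.99, 5.99, 5.99 and 6.28 in Aldara-treated mice and 5.95, 5.76, 5.95, 5.88 and 5.86 in control mice. The groups overlapped, and Aldara replicate 5 stood above the other treated mice. The log2 difference was 0.15 (standard error 0.066, 95% interval 0.00048 to 0.29, adjusted p = 0.11 from limma), and without Aldara replicate 5 it was 0.081. The measured change of Il1a was smaller than that of Il1b by 0.32 (95% interval of the difference -0.55 to -0.09, exact permutation test, adjusted p = 0.024 over 6 pairs). The mean of Il1a lay at the 12.9th percentile of the probesets tested and that of Il1b at the 22.8th. Whether nearness to background lowered the measured change of Il1a was not tested.
Il18, the other cytokine that caspase-1 matures, was the only gene of the 10 with a lower mean in Aldara-treated mice. Its log2 values were 7.75, 7.85, 7.94, 7.96 and 8.20 in Aldara-treated mice and 8.06, 8.17, 8.23, 7.99 and 8.26 in control mice. Of the 5 treated mice, 4 stood below every control mouse, while Aldara replicate 5 lay inside the control range. The log2 difference was -0.20 (standard error 0.078, 95% interval -0.37 to -0.032, adjusted p = 0.066 from limma). In limma it passed the threshold without Aldara replicate 5 (-0.27, adjusted p = 0.0072) and without control replicate 4 (adjusted p = 0.039). It also passed with array weights (adjusted p = 0.017) and with a block for the replicate number (adjusted p = 0.022). The same held with the arrays centred (adjusted p = 0.018) or quantile-normalised (adjusted p = 0.021). Il18 did not pass under the other 14 of 20 alternatives. Among these were the t-test of the study's methods (adjusted p = 0.13) and limma with the median difference over probesets set to 0 (-0.16, adjusted p = 0.16). The change of Il18 differed from that of Il1b by -0.67 (95% interval -0.99 to -0.34, exact permutation test, adjusted p = 0.016 over 6 pairs), and the groups did not overlap in the difference of the 2 genes.

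In the exact two-sided permutation test of each gene over the mice, the 8 genes that passed in limma each had p = 0.0079, the smallest that 5 mice against 5 allow, and Il1a and Il18 each had p = 0.056. These p-values were not adjusted. The value 0.0079 follows whenever the groups do not overlap, so it restates the separation of the 8 genes. Aldara replicate 5 was the highest of the treated mice for 6 of the 10 genes, Il1a, Il18, Il1rn, Casp1, Casp4 and Gsdmd. Over the 8 genes that were higher, its mean difference from the control mean was 0.70, against 0.46 to 0.59 in the other treated mice. Leaving it out changed the call of Il18 and of no other gene among the 10. Array weights in limma, estimated over all probesets tested, are lower for arrays that vary more. Aldara replicate 5 had the lowest weight, 0.463, against 0.798 to 1.483 for the other arrays.

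**Figure D3:**
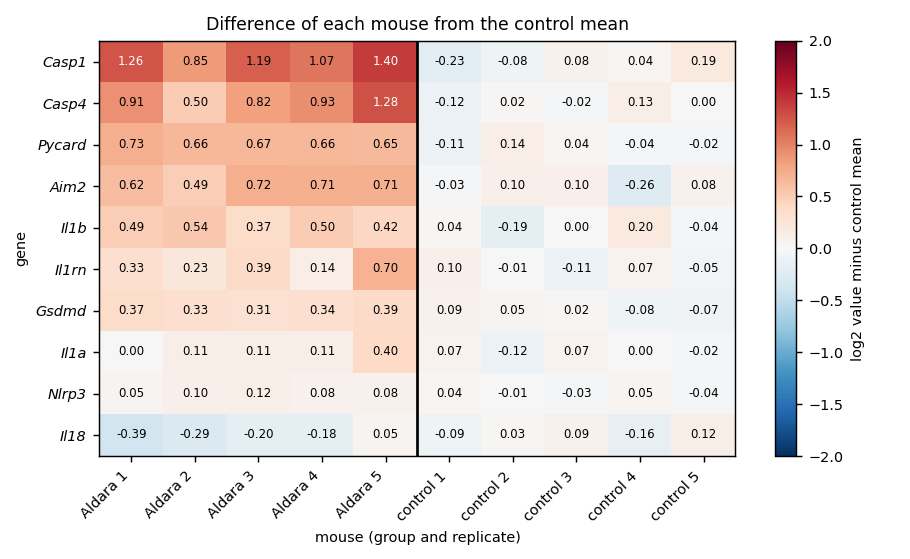
Log2 value of each gene in each mouse minus the mean of the 5 control mice, with genes in rows in order of their mean change and Aldara mice left of the line. Casp1 runs from 0.85 to 1.40 in Aldara-treated mice, Pycard from 0.65 to 0.73, and Il18 is negative in 4 of the 5.

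The genes whose values over the 10 arrays were most like those of Casp1 were Myof (Pearson r = 0.995), Iqgap1 (0.991) and Cp, the ceruloplasmin gene (0.991). For Casp4 they were Cp (0.988), D17H6S56E-5 (0.987) and Clec2d (0.986), and for Pycard they were Kpna2 (0.994), Milr1 (0.992) and Sla (0.992). All these points share the step between the 2 groups, so r mostly describes that step, and Milr1 had a log2 difference of 3.08 where Pycard had 0.67.

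Of 66 further genes of the pathway listed by role, 56 were measured, and 21 of them (20 without overlap) were higher and 7 lower in Aldara-treated mice (16 lower with the arrays centred), against 12.4% higher, 10.5% higher without overlap and 21.0% lower among all probesets. Their median log2 difference was 0.041. Among inflammasome sensors, 5 of 9 were higher. The largest change was that of Naip2, whose product senses the inner rod of bacterial type III secretion systems, with log2 values of 8.76, 8.56, 8.97, 8.51 and 9.04 in Aldara-treated mice, against 6.65, 6.98, 6.78, 6.66 and 6.81 in control mice. Its log2 difference was 1.99 (standard error 0.10, adjusted p = 3.5e-08 from limma). For Naip5, which senses flagellin, the log2 difference was 1.21 (standard error 0.066), and for Naip6, which does so too, it was 1.01 (standard error 0.087). Nlrp1b had 0.33 (standard error 0.05), and Nlrp1a had 0.23 (standard error 0.047). The Naip and Nlrp1 genes are families of close copies, so signal shared between their probesets is possible and was not tested. Nlrc4, the partner through which the NAIP sensors act, did not pass the test, at 0.13 (standard error 0.048, adjusted p = 0.064 from limma), but was higher under 5 settings, namely quantile normalisation, array weights, the median difference set to 0 and without Aldara replicate 2 or 4.

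Both further caspase genes of the list were higher. Casp8, the apical protease of death receptors, which can also cut the IL-1 beta precursor, had log2 values of 9.27, 9.12, 9.39, 9.17 and 9.37 in Aldara-treated mice and 7.19, 7.26, 7.42, 7.18 and 7.46 in control mice. Its log2 difference of 1.96 (standard error 0.069, adjusted p = 1.1e-09 from limma) was larger than those measured for Casp1 and Casp4. Their intervals end at 1.37 and 1.13, below its own of 1.81 to 2.11. The mean of Casp8 lay at the 52.1st percentile of the probesets tested, and those of Casp1 and Casp4 at the 25.6th and 21.7th. Whether nearness to background lowered the measured changes of Casp1 and Casp4 was not tested. Casp12, which lies in the same cluster as Casp1 and Casp4, had a log2 difference of 0.87 (standard error 0.056). None of 7 other pore and membrane rupture genes passed the test, where 12.4% of all probesets were higher and 21.0% lower. With the arrays centred, 4 of the 7 were lower, and Gsdma was lower without control replicate 3. Their median log2 difference was -0.046, with Gsdma at -0.11, Gsdmc at -0.041, Gsdme at -0.053 and Ninj2 at -0.047.

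Of 9 measured receptor and decoy genes of the IL-1 family, 1 was higher and 2 were lower, shares close to the 12.4% and 21.0% of all probesets. The higher gene was Il18bp, which encodes a soluble trap for IL-18, at 0.42 (standard error 0.042, adjusted p = 1.2e-05 from limma). Its log2 values were 9.42, 9.32, 9.47, 9.31 and 9.46 in Aldara-treated mice and 9.04, 8.89, 9.03, 8.95 and 8.98 in control mice. Lower were Il1r2, the decoy receptor of IL-1, at -0.19 (standard error 0.062, a call lost without any 1 of 7 mice, by the methods' t-test and with the median difference set to 0), and Il1rapl1, a synaptic adhesion molecule of the same family, at -0.21 (standard error 0.045). Il18r1, a chain of the IL-18 receptor, did not pass, at 0.094 (adjusted p = 0.055 from limma), but was higher under 5 settings, namely quantile normalisation, array weights, the median difference set to 0 and without Aldara replicate 2 or control replicate 4. Of the further ligand genes, Il33, an alarm cytokine of glia, was higher at 0.16 (standard error 0.043) and Il1f10 did not pass, at -0.054. The genes Il1r1, Il1rl1, Irak4, Nlrp1c, Nlrp12, Naip1 and those of the IL-36 ligands were not analysed here.

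Downstream of the receptors, 4 of 13 signalling genes were higher and 3 were lower, against 12.4% higher and 21.0% lower among all probesets. Myd88, the adapter of IL-1, IL-18 and most Toll-like receptors, had log2 values of 9.04, 8.86, 9.05, 8.88 and 9.24 in Aldara-treated mice and 7.89, 7.90, 7.87, 7.83 and 7.94 in control mice. Its log2 difference was 1.13 (standard error 0.062, adjusted p = 7.0e-08 from limma). Irak3, which encodes an inhibitory kinase relative of the same pathway, had one of 1.04 (standard error 0.099). Tab2 and Peli1 were higher by small amounts, at 0.11 and 0.12, and both calls were lost with the arrays centred, that of Peli1 also without any 1 of 7 mice and under 4 other settings. Lower were Tollip at -0.14, Peli2 at -0.17 and Peli3 at -0.16.

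Among 14 genes that activate or modulate inflammasomes, 8 were higher and 2 were lower, against 12.4% and 21.0% of all probesets. The interferon-induced Trim30a had the largest log2 difference, 3.22 (standard error 0.19, adjusted p = 1.5e-07 from limma), with 10.50, 10.19, 10.78, 10.38 and 11.41 in Aldara-treated mice and 7.39, 7.39, 7.76, 7.20 and 7.44 in control mice. Aldara replicate 5 again stood highest. Txnip, which binds thioredoxin, had a log2 difference of 0.96 (standard error 0.05), and the ATP-gated channel genes P2rx4 and P2rx7 had 0.95 (standard error 0.065) and 0.63 (standard error 0.056). Gbp5, a guanylate-binding protein gene, stood at 1.16 (standard error 0.15), Nek7, which encodes the kinase that binds NLRP3, at 0.28 (standard error 0.042), Card6 at 0.41 and Nlrc3 at 0.17. Lower were Serpinb1a, an inhibitor of granule proteases, at -0.44 (standard error 0.044), and Panx1, a membrane channel gene, at -0.13 (standard error 0.037), which missed the threshold with the median difference set to 0. Nlrc5 was read from the brightest of its 19 probesets, which did not pass at 0.04, whereas 15 of the 19 were higher and their log2 differences ran from -0.0061 to 1.55.

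**Figure D4:**
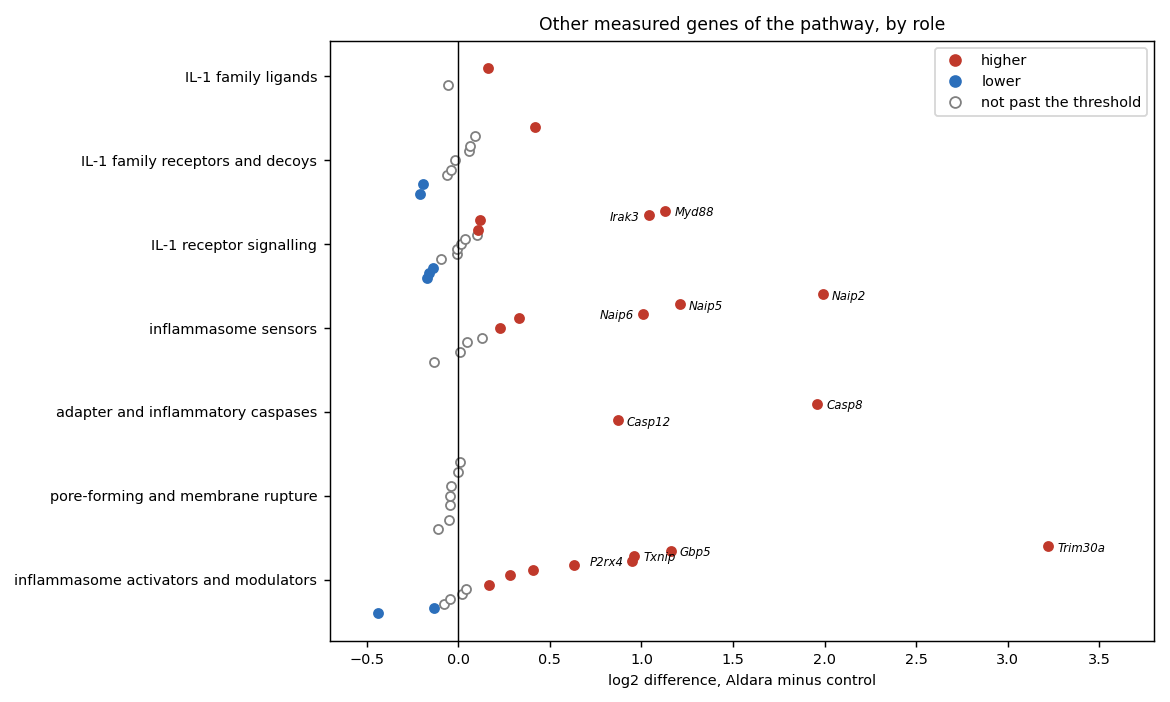
Log2 difference between Aldara and control brains for 56 further genes of the pathway, 1 point per gene in rows by role, with red for higher, blue for lower and open grey for genes that did not pass the adjusted threshold. Naip2, Casp8 and Trim30a lie far to the right, at 1.99, 1.96 and 3.22, while the pore and membrane rupture genes lie close to 0.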

How the data were processed

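Whole-brain RNA of 10 mice was measured, with 1 array per mouse. The authors deposited log2 values from RMA, run in GeneSpring GX, which subtracts background, quantile-normalises the arrays and summarises each probeset. The library file and the GeneSpring version are not given in the sources used here. Scanner values were not used here, and precision is limited by the number of arrays. Of 28856 probesets, 21789 had 1 gene symbol, 1621 several and 5446 none. The 23410 with a symbol were tested in R 4.3.3 by limma 3.58.1, using lmFit and eBayes, without block or covariate, and p-values were adjusted over all of them by the Benjamini-Hochberg method. A gene with several probesets was read from the brightest. In simulated data of 23410 probesets, 1.5-fold changes were recovered in 98% of cases and 3-fold changes in 99%, with 12 false calls among 209. The simulation used independent normal noise and 200 changed probesets, raised and lowered in equal number, where the measured data gave 7827 calls. Changes under 1.5-fold were not simulated. For pairs of genes, an exact permutation test, two-sided, was run on the per-mouse difference of their log2 values (scipy 1.17.1), with intervals from the pooled SD. The genes of interest and the lists were chosen with earlier results of these data known. All 10 genes are named, with every probeset, and of each list up to 4 further genes with the smallest p. Nlrc4, Nlrp1a, Tab2, Peli1, Tollip, Gbp5, Nek7, Card6, Nlrc3, Nlrc5, Panx1 and Serpinb1a were named after their values were seen. Marker lists of T and natural killer cells (6 of 9 higher, 1 lower), endothelial cells (5 of 6 higher), astrocytes (3 of 7 higher, 4 lower) and oligodendrocytes (1 of 5 higher, 1 lower) were also read. Alternatives were other scalings, probeset sets, variance models and tests, weights for arrays, a block for the replicate number, and leaving out each mouse. The shift of the median difference to 0 was added after seeing the data.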

Additional observations from a re-analysis of the deposited data

Results flagged for a closer look

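In the group of 5 Aldara arrays, 1 mouse stood far from the others for 3 of the named genes, out of 68 combinations of gene and group checked, of which chance flags about 1 in 20. For Il1a, Aldara replicate 5 had a log2 value of 6.28, against 5.88 to 5.99 in the other treated mice. For Pycard, Aldara replicate 1 had 8.45, against 8.38 to 8.39, so that the gap arose from the small spread of the others. For Txnip, Aldara replicate 2 had 9.23, against 9.46 to 9.50, and still lay above every control mouse.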

How the results depend on the processing

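Of the 10 genes, 7 or 8 were higher under all 20 alternatives that could be run, with 7 wherever Nlrp3 missed the threshold. Casp1, Casp4, Pycard, Aim2, Il1b, Il1rn and Gsdmd kept their direction and call under every one of them. With only brighter probesets, none of the 10 genes was left, so that setting gave no value for them. The count of lower genes, 0, was 1 (Il18) with arrays centred on their median, with quantile normalisation, with array weights and with the replicate block, and 0 to 1 without single mice. The further pathway genes numbered 20 to 23 higher and 6 to 8 lower without single mice, and 16 lower with the arrays centred. Over all probesets, 7827 were called, 37.1% of them higher, against 11905 and 19.3% with the arrays centred and 6593 and 58.1% with the median difference set to 0, a setting chosen after seeing the data. Without single mice they numbered 6804 to 7698. The difference between the changes of Casp4 and Casp1 ran from -0.32 to -0.24 without single mice. The adjusted p of the exact permutation test reached 0.076 there, where 5 mice against 4 allow no p under 0.016 before adjustment. The labels do not say whether mice of the same replicate number were paired. Deviations of same-numbered arrays correlated at -0.11 to 0.25, and 2 of the 5 Aldara arrays correlated best with the control array of their own number. These values cannot settle whether same-numbered arrays shared a batch. With the replicate block, 7122 probesets were called, Il18 passed the threshold (adjusted p = 0.022 from limma) and Nlrp3 did not (adjusted p = 0.078). The cause of these shifts was not tested.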
